A study of Mus musculus with 27 samples.

Results

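The immunity-related GTPases are 7 of the 41388 genes in the deposited count table: Irgm1, Irgm2, Igtp, Iigp1, Ifi47, Tgtp1 and Tgtp2, chosen by symbol. Messenger RNA was sequenced from dural macrophages, the resident phagocytes of the outer brain membrane, sorted in bulk from Rag1 ko mice of strain B6 aged 16 to 19 weeks. All host mice lacked Rag1 and therefore their own T and B cells, while NK cells and other innate lymphocytes do not need Rag1. In 6 of the 7 groups the mice were studied 6.5 weeks after they had received T cells. The donor cells were Tbet ko (2 libraries), IFNg ko (2), IL6Ra ko/IL21R ko (7), IL-17AF ko (2), IL22 ko (3) or total B6 T cells (5), and the last group received none and was kept at steady state (6). The IL6Ra ko/IL21R ko group had 3 female and 4 male libraries, the IL22 ko group 2 and 1, the total T-cell group 4 and 1 and the group without T cells 4 and 2. All libraries of the other 3 groups were female. The knockouts were in the donor T cells and not in the sequenced macrophages. Which markers the sort used is not stated in the labels.

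Immunity-related GTPases are a family of large GTP-binding proteins that mouse cells make under interferon. Effector members (Iigp1, Ifi47, Tgtp1 and Tgtp2) coat the vacuoles of intracellular parasites and bacteria such as Toxoplasma and Chlamydia and help to break them open. Regulatory members (Irgm1, Irgm2 and Igtp) sit on the cell's own membranes and keep the effectors inactive there. In mice, loading of effectors onto a vacuole also needs the conjugation machinery of autophagy. IL-6 and IL-21 promote the Th17 type of T cell, which makes IL-17 and IL-22. Interferon-gamma, a T-cell and NK-cell cytokine whose production by T cells T-bet promotes, acts on promoters through gamma-activated sites (GAS), and interferon regulatory factors bind interferon-stimulated response elements (ISRE).

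Of the 7 genes, 6 lie on chromosome 11 (GRCm38, GENCODE M21), and the place of Iigp1 is given with its values. Irgm1 spans 48861968 to 48871683, Tgtp1 48985327 to 48994172 and Tgtp2 49057194 to 49064206, all on the minus strand. Ifi47 spans 49076587 to 49096974, Igtp 58199556 to 58207591 and Irgm2 58199618 to 58222782, all on the plus strand. Igtp and Irgm2 share 162 exon bases on the same strand, which is 8.01% of the exon length of Igtp and 4.39% of that of Irgm2. Tgtp1 and Tgtp2 are near copies: 74.6% of the 75-base windows of Tgtp1 transcripts also occur in Tgtp2, and 81.4% of those of Tgtp2 occur in Tgtp1. The split of reads between Tgtp1 and Tgtp2 is therefore uncertain. Tgtp1 also shares 223 exon bases with Gm12185, and Ifi47 shares 111 with Olfr56. No 75-base window of Irgm1 or Iigp1 occurred in another gene.

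The promoters are shown because 5 of the 6 members whose windows were used carry interferon-type motifs close to the gene start. Of these 5, 4 carry the same arrangement. The Iigp1 promoter is not reported here. The stretches are the 100 bases before the RefSeq start of each gene, 5′ to 3′ on the gene's strand (RefSeq, GRCm38.p6), and capitals mark every match to TTCNNNGAA (GAS-like, the same on both strands) or GAAANNGAA (ISRE-like, searched on both strands). The windows are chr11:48871421-48871520 for Irgm1, chr11:58214877-58214976 for Irgm2, chr11:58199456-58199555 for Igtp, chr11:48992247-48992346 for Tgtp1 and chr11:49064213-49064312 for Tgtp2, on the plus strand for Irgm2 and Igtp and on the minus strand for the others. The RefSeq starts of Irgm1, Irgm2 and Tgtp1 lie inside the longer GENCODE spans given above.
Irgm1: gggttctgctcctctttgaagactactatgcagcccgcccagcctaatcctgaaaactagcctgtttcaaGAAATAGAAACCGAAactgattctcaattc
Irgm2: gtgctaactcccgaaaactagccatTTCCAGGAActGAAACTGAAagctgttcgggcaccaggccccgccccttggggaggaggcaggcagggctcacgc
Igtp: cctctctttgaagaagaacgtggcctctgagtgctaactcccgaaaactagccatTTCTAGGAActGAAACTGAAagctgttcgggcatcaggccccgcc
Tgtp1: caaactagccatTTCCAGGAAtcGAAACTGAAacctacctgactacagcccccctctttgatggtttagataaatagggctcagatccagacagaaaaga
Tgtp2: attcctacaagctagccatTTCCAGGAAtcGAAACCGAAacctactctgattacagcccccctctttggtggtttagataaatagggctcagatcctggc

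In Irgm2, Igtp, Tgtp1 and Tgtp2 a GAS-like motif was followed, after 2 bases, by an ISRE-like motif. The GAS-like motif began 75 bases before the start in Irgm2, 45 in Igtp, 88 in Tgtp1 and 81 in Tgtp2. This spacing of both motifs occurred in 8 of 32851 RefSeq promoter windows of 300 bases (0.0244%), the 4 members included. The other 4 windows belong to Adar, Gm12185, Olfr382 and LOC115488470. A GAS-like motif alone was found in 8.30% of all windows, an ISRE-like motif in 8.56% and both in 1.07%. The spaced pair was searched for after the member sequences had been seen. Irgm1 held 2 ISRE-like motifs, which began 30 and 24 bases before its start and overlapped by 3 bases, and no GAS-like motif. The Ifi47 window, 250 bases before to 50 after its RefSeq start, held neither, which says only that these letters are not in that window. In a global alignment the promoter windows of Irgm2 and Igtp were 72.8% identical and those of Tgtp1 and Tgtp2 66.8%, and the other 13 pairs were between 38.6% and 49.6% identical. A match is a description of the sequence and not evidence that a factor was bound.

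**Figure D1:**
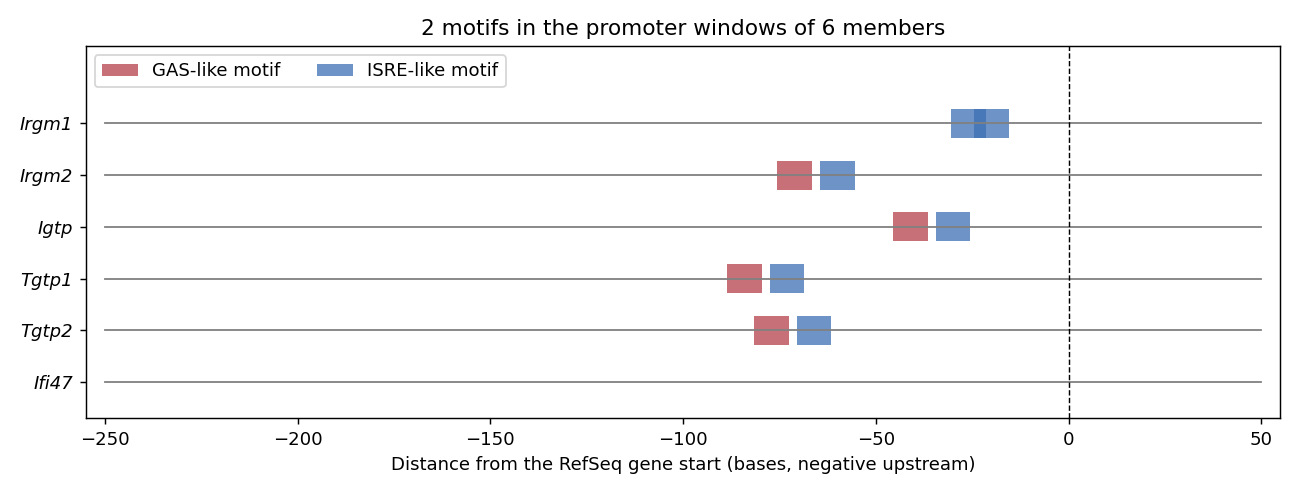
Positions of GAS-like and ISRE-like motifs (coloured boxes) in the RefSeq promoter windows of 6 members. The horizontal axis is the distance from the gene start in bases, and the dashed line marks the start. Irgm2, Igtp, Tgtp1 and Tgtp2 show the same GAS-ISRE pair at different distances, Irgm1 shows 2 overlapping ISRE-like motifs and Ifi47 none.

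The 27 libraries held from 6902602 to 19966749 counts. All 7 members passed a filter on a mean normalized count of at least 10, as did 12597 genes in all. Every group expressed the macrophage genes Csf1r, Cd68, Adgre1 and Mrc1, and Csf1r was between 2692 and 5760 CPM (a gene's counts scaled to the size of the library, with TMM factors) in every library. The T-cell receptor complex genes Cd3d, Cd3e and Cd3g were at or near 0. The most was 70 counts of Cd3d (4.76 CPM) in 1 total T-cell library, F1 (named by sex and a running number). Ifng had 0 counts in 3 of 5 total T-cell libraries and up to 61 in the other 2, with the 61 also in F1. It had 0 in every Tbet ko, IFNg ko, IL6Ra ko/IL21R ko and IL-17AF ko library. Il6ra and Il21r had between 602 and 3094 counts in every library, those of the IL6Ra ko/IL21R ko group included, so the counts do not check the donor knockouts.

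By their ribosomal protein transcripts the libraries fell into 3 sets. Set A holds 3 total T-cell libraries (F1, F2 and M1) and 4 without T cells. Set B holds 6 of the IL6Ra ko/IL21R ko group, the 3 of the IL22 ko group, 2 of the total T-cell group (F3 and F4) and 2 without T cells. Set C holds the Tbet ko, IFNg ko and IL-17AF ko groups and 1 IL6Ra ko/IL21R ko library. Neither control group has a library in set C, so what separates Tbet ko, IFNg ko or IL-17AF ko T cells from a control and what separates the sets cannot be told apart. Libraries are named here by sex and a running number. The labels do not state that libraries are from different animals, and the p-values measure only the spread between libraries. From the column names, both Tbet ko libraries may be of 1 animal and some of the others may be pooled.

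The first question was whether macrophages of mice with T cells differed from those of mice without. Igtp, Iigp1 and Ifi47 were higher with total T cells, each with more than 2-fold the level, and the other 4 members did not pass the test. That is 3 of 7 members called higher, against 11.7% of all genes tested. The median log2 fold change was 1.09 over the 7 members and -0.02 over all genes. Called means an adjusted p (q, Benjamini-Hochberg over 12597 genes) under 0.05 in edgeR's quasi-likelihood test, fitted to all 27 libraries with group and sex as terms. In bulk RNA, fewer cells of a type and less RNA per cell cannot be told apart.

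Among the regulators, Igtp stood at 227, 111, 80.4, 118 and 248 CPM in total T-cell libraries F1, F2, F3, F4 and M1, against a lowest of 42.3, a median of 58.3 and a highest of 78.3 CPM in the 6 libraries without T cells. Every library with total T cells was above every library without, although F3 only just so, and F1 and M1 were far above the rest. The log2 fold change was 1.40 ± 0.23 (SE, q = 0.00019). Irgm1 had 270, 156, 132, 189 and 271 CPM in the same total T-cell libraries, against 122, 144 and 190 CPM (lowest, median, highest) without T cells. F1 and M1 were again high, F2, F3 and F4 lay within the range of mice without T cells, and the difference of 0.45 ± 0.20 did not pass (q = 0.118), although it did without F3 (0.56, q = 0.0433). Irgm2 had 75.2, 67.6, 65.6, 72.1 and 128 CPM with total T cells, against 57.1, 72.2 and 89.4 CPM without. Only M1 was above the range of the group without T cells, and the difference was 0.17 ± 0.15 (q = 0.464).

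Among the effectors, Iigp1 lies apart from the others, on the plus strand of chromosome 18 from 60376027 to 60392634. It had 238, 135, 126, 186 and 269 CPM in total T-cell libraries F1, F2, F3, F4 and M1, against 54.8, 71.3 and 95.9 CPM (lowest, median, highest) without T cells. The groups did not overlap, and the log2 fold change was 1.37 ± 0.22 (q = 0.000117). Ifi47 had 313, 151, 133, 172 and 326 CPM with total T cells, against 80.7, 106 and 125 CPM without. These groups did not overlap either, with F3 close to the highest library without T cells, and the log2 fold change was 1.09 ± 0.21 (q = 0.000727). Tgtp1 was low, at 12.9, 2.63, 0.938, 2.37 and 10.4 CPM with total T cells against 0.231, 1.59 and 3.22 CPM without. F1 and M1 stood above all other libraries of the series, the remaining 3 were within the range of mice without T cells, and the difference of 1.90 ± 0.80 did not pass (q = 0.096). Tgtp2 had 22.1, 26.2, 29.4, 28.5 and 50.4 CPM with total T cells, against 18.4, 21.8 and 29.0 CPM without, with only F3 and M1 above that range. Its difference was 0.48 ± 0.23 (q = 0.136). With Tgtp1 and Tgtp2 summed into 1 gene the difference was 0.63 ± 0.23 (q = 0.0507).

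Both library sets gave the same direction for the 3 called genes. In set A, with 3 libraries against 4, the log2 fold change was 1.62 for Igtp (q = 0.0027), 1.46 for Iigp1 (q = 0.00278) and 1.32 for Ifi47 (q = 0.00585). There Irgm1 (0.63, q = 0.0485) and Tgtp1 (2.69, q = 0.018) passed as well. In set B, with 2 libraries against 2, it was 1.04 for Igtp (q = 0.0721), 1.32 for Iigp1 (q = 0.0598) and 0.69 for Ifi47 (q = 0.0614), and no member passed. A test of the difference between the sets called no member and no gene (1273 genes at an unadjusted p under 0.05). With so few libraries, like effects in both sets are not shown by that result. How many of all genes were called in set A or set B alone was not counted.

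The marker genes of other cell states moved with the members. Monocyte-derived markers were called higher in 10 of 10 cases and summed to between 1972 and 9526 CPM with total T cells, against 736 to 1363 CPM without. Their sum was 9526 CPM in F1 and 4080 CPM in M1, the libraries with the most Igtp, Iigp1 and Ifi47, and 3157, 1972 and 2002 CPM in F2, F3 and F4. Border macrophage markers were called lower in 9 of 10, at 10537 to 27990 CPM against 27647 to 34615 CPM, with F1 and M1 the lowest at 10537 and 13162 CPM. Dendritic-cell markers were called higher in 4 of 7 and fibroblast markers lower in 2 of 6. The dendritic-cell sum was 224, 292, 462, 357 and 378 CPM in F1, F2, F3, F4 and M1, against 150 to 232 CPM without T cells. It was lowest in F1 and highest in F3, the library with the least Igtp, Iigp1 and Ifi47 of the total T-cell group. Among the other marker lists, 2 macrophage genes of 9 were called higher and 1 lower, and 1 neutrophil gene of 5 was higher. The neutrophil sum ran from 22.1 to 269 CPM with total T cells and from 0.347 to 1502 CPM without. Of 2 B-cell genes 1 was lower, and the single tested T-cell and NK-cell genes were not called. The part of these shifts in the members' levels was not tested.

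**Figure D2:**
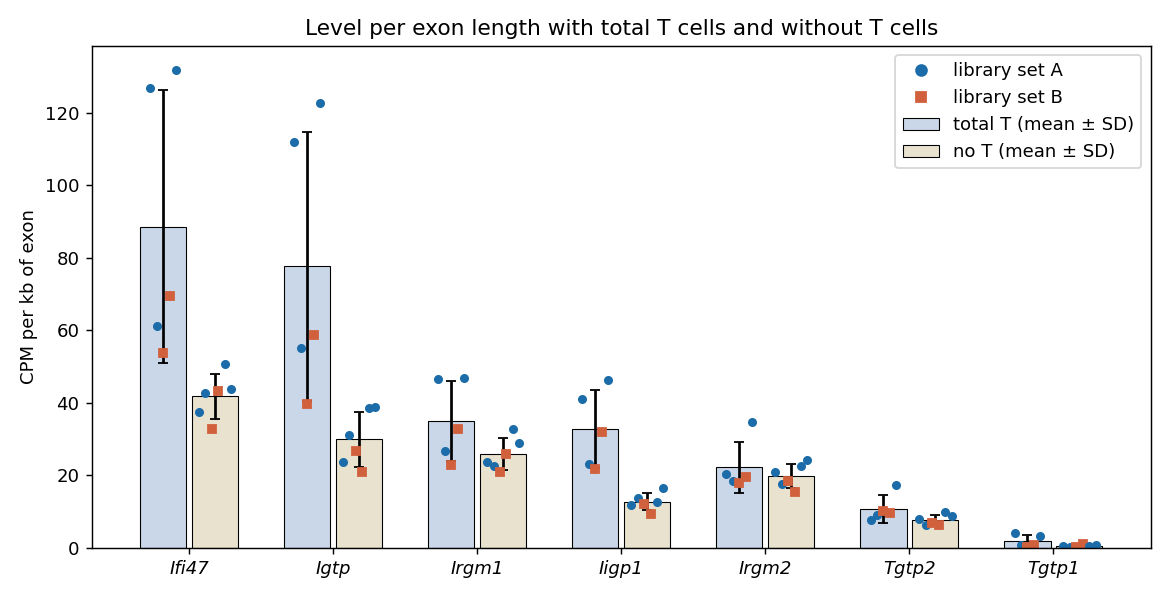
CPM per kilobase of merged exon length for each member, with total T cells (left bar) and without T cells (right bar). Bars are means, error lines are SDs (n = 5 and n = 6), and each symbol is a library, shaped by library set. Ifi47 and Igtp were the most abundant members per length with total T cells, at 88.6 and 77.6, and the values of Tgtp1 and Tgtp2 depend on how reads shared with other genes were counted.

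Per kilobase of exon, which allows genes of different length to be set side by side, Ifi47 led with 88.6 ± 37.6 CPM per kb with total T cells and 41.7 ± 6.13 without (SD, n = 5 and n = 6). Igtp followed with 77.6 ± 37.1 and 29.9 ± 7.56. Irgm1 (35.0 ± 11.1 and 25.7 ± 4.39) and Iigp1 (32.8 ± 10.7 and 12.6 ± 2.34) were nearly level with each other when total T cells were present, but Irgm1 had the higher level without T cells. Irgm2 stood at 22.1 ± 7.05 and 19.8 ± 3.29, Tgtp2 at 10.7 ± 3.76 and 7.67 ± 1.45, and Tgtp1 at 1.83 ± 1.69 and 0.491 ± 0.330. The levels of Tgtp1 and Tgtp2 have no secure place in this order, because 77.2% and 81.4% of their 75-base windows occur in other genes and the handling of such reads is not known. Of the 3 regulators only Igtp passed the test between these groups, together with the effectors Iigp1 and Ifi47.

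The second question was what followed when the donor T cells lacked a factor. Against total T cells, members were lower with IFNg ko and IL6Ra ko/IL21R ko T cells in 5 and 6 of 7 cases, with Tbet ko T cells in 3 and with IL-17AF ko T cells in 2, and none was called with IL22 ko T cells. None was called higher in any of these comparisons. All 5 comparisons share the 5 total T-cell libraries and are not independent of each other.

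With IFNg ko T cells, 5 of 7 members were called lower than with total T cells, against 19.5% of all genes. Igtp had 42.1 and 56.5 CPM with IFNg ko T cells, against the 80.4 to 248 CPM of the total T-cell libraries. Both lay below all 5, and the log2 fold change was -1.60 ± 0.35 (q = 0.00132). Ifi47 had 93.9 and 69.2 CPM, against 133 to 326 CPM with total T cells, also without overlap (-1.43 ± 0.32, q = 0.0013). Irgm1 had 90.2 and 66.9 CPM, against 132 to 271 CPM (-1.36 ± 0.31, q = 0.0015), and Iigp1 87.4 and 89.4 CPM, against 126 to 269 CPM (-1.12 ± 0.32, q = 0.00848). Tgtp1 was at 0 and 0.444 CPM, against 0.938 to 12.9 CPM with total T cells. Its fitted difference of -4.54 ± 1.52 (q = 0.0219) rests on very few counts. Without the total T-cell library F1 it did not pass (q = 0.051). Without IFNg ko library F1, neither Tgtp1 (q = 0.184) nor Iigp1 (q = 0.0836) was called. Irgm2 had 74.6 and 69.5 CPM, inside the range of the total T-cell group (-0.14 ± 0.22, q = 0.654), and Tgtp2 23.3 and 14.3 CPM (-0.73 ± 0.33, q = 0.0865). When the library set was added as a term, no member was called: Igtp stood at -0.81 ± 0.47 (q = 0.506), Ifi47 at -0.56 ± 0.42 (q = 0.633), Iigp1 at -0.51 ± 0.47 (q = 0.712) and Irgm1 at -0.05 ± 0.38 (q = 0.98). In that fit the set C groups are tied to the others by a single IL6Ra ko/IL21R ko library. The Tbet ko and IL-17AF ko calls against total T cells were lost in it as well. The share of all genes called in that fit was not counted.

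With Tbet ko T cells, 3 of 7 members were called lower than with total T cells, against 15.2% of all genes. Ifi47 had 120 and 87.9 CPM with Tbet ko T cells, below all total T-cell libraries (133 to 326 CPM), with a log2 fold change of -1.08 ± 0.31 (q = 0.0106). Irgm1 had 99.8 and 103 CPM, against 132 to 271 CPM, also without overlap (-0.99 ± 0.30, q = 0.0145). Igtp had 93.9 and 66.4 CPM, of which the first lay within the total T-cell range (-0.90 ± 0.34, q = 0.0463). The Igtp call was lost without F1 (q = 0.124) or without M1 (q = 0.0953) of the total T-cell group. Without Tbet ko library F1 only Ifi47 was called, and without F2 none was (q = 0.147 for Ifi47, 0.0907 for Irgm1 and 0.317 for Igtp). Iigp1, at 129 and 113 CPM, was -0.67 ± 0.31 from total T cells (q = 0.109). Irgm2 (93.1 and 71.2 CPM), Tgtp1 (0.886 and 1.28 CPM) and Tgtp2 (29.9 and 29.2 CPM) did not pass either.

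With IL-17AF ko T cells, 2 of 7 members were called lower than with total T cells, against 12.6% of all genes. Irgm1 had 123 and 109 CPM, against 132 to 271 CPM with total T cells (-0.80 ± 0.30, q = 0.0495). Ifi47 had 127 and 116 CPM, against 133 to 326 CPM (-0.85 ± 0.30, q = 0.0417). Both genes lay only just below the lowest total T-cell library, and both calls were lost without F1 (q = 0.113 for Irgm1 and 0.109 for Ifi47) or without M1 (q = 0.0999 and 0.0936) of the total T-cell group, and without either IL-17AF ko library (q from 0.171 to 0.253). Without F4 the Irgm1 call was lost as well (q = 0.0567). Igtp, at 108 and 128 CPM, and Iigp1, at 167 and 159 CPM, lay within the total T-cell range, with differences of -0.34 ± 0.33 (q = 0.484) and -0.24 ± 0.30 (q = 0.61). Irgm2 had 97.7 and 94.2 CPM, above all but M1 of the total T-cell libraries (0.28 ± 0.21, q = 0.36). Tgtp1 had 1.08 and 2.08 CPM and Tgtp2 29.6 and 33.4 CPM, both within the total T-cell range.

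With IL6Ra ko/IL21R ko T cells, 6 of 7 members were called lower than with total T cells, against 15.2% of all genes. Igtp had a lowest of 47.5, a median of 65.3 and a highest of 79.8 CPM in the 7 IL6Ra ko/IL21R ko libraries, against 80.4 to 248 CPM with total T cells. The groups did not overlap, but their nearest libraries were less than 1 CPM apart, and the log2 fold change was -1.37 ± 0.22 (q = 8.4e-05). Iigp1 had 40.5, 81.2 and 117 CPM (lowest, median, highest), against 126 to 269 CPM, again without overlap (-1.27 ± 0.21, q = 9.14e-05). Ifi47 (75.1, 98.4 and 133 CPM) was -1.03 ± 0.20 from total T cells (q = 0.000468), with its highest library level with the lowest total T-cell library. Irgm1 had 63.3, 128 and 179 CPM (-0.74 ± 0.20, q = 0.00656), Tgtp1 0, 0.539 and 2.45 CPM (-3.04 ± 0.79, q = 0.00553) and Tgtp2 10.7, 20.4 and 27.1 CPM (-0.69 ± 0.22, q = 0.0199), all with overlap. Without total T-cell library M1 the calls of Irgm1 (q = 0.0671) and Tgtp2 (-0.35, q = 0.28) were lost. Irgm2 had 61.2, 76.1 and 89.8 CPM (-0.14 ± 0.15, q = 0.529).

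For IL6Ra ko/IL21R ko the comparison can also be made inside set B, with 6 libraries against 2. There Iigp1 averaged 81.9 CPM (40.5 to 117) against 156 CPM (126 and 186) with total T cells, a log2 fold change of -0.73 (q = 0.099). Igtp averaged 64.3 against 99.4 CPM (-0.54, q = 0.15) and Ifi47 113 against 152 CPM (-0.24, q = 0.352). No member passed inside set B, and all 3 values were smaller than in the fit of all libraries. When the library set entered the whole fit as a further term, Igtp (-0.85, q = 0.0207) and Iigp1 (-0.92, q = 0.0118) were called and the other 5 members were not. How many of all genes were called in either fit was not counted, so these counts are not results about the family.

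With IL22 ko T cells no member was called against total T cells. The test called 36 of 12597 genes in all (0.286%, 2191 at an unadjusted p under 0.05), and DESeq2 called 731. Ifi47 had 170, 141 and 126 CPM with IL22 ko T cells (-0.59 ± 0.26 from total T cells, q = 0.222) and Igtp 132, 80.5 and 115 CPM (-0.53 ± 0.28, q = 0.344). Iigp1 had 154, 123 and 138 CPM (-0.46 ± 0.26, q = 0.39). The lowest Ifi47 and Iigp1 libraries lay just under the total T-cell range and all other values within it. Irgm1 had 186, 153 and 156 CPM, Irgm2 102, 74.8 and 83.7 CPM, Tgtp1 1.09, 1.28 and 1.12 CPM and Tgtp2 38.1, 29.2 and 24.3 CPM, all within the range of total T-cell libraries. Inside set B, where all IL22 ko libraries lie, the difference from total T cells was 0.20 for Igtp, -0.0037 for Iigp1 and 0.06 for Ifi47, and none passed.

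Other cell markers differed in these comparisons too. Fibroblast markers were called higher than with total T cells in 6 of 6 cases for Tbet ko, IFNg ko, IL6Ra ko/IL21R ko and IL-17AF ko T cells. They summed to 3034 to 3342, 3096 to 3607, 364 to 3539 and 2216 to 3067 CPM in these groups, against 244 to 400 CPM with total T cells. The 3539 CPM belongs to M4, the only IL6Ra ko/IL21R ko library of set C. The remaining libraries of that group had 364 to 1145 CPM. The other groups named lie wholly in set C, so library set and donor cells cannot be told apart for these markers. Monocyte-derived markers were called lower in 9, 8, 10 and 7 of 10 cases in the same order of groups, and border macrophage markers higher in 8, 9, 9 and 6 of 10. Dendritic-cell markers were called lower in 4, 5, 4 and 3 of 7 cases and neutrophil markers in 1, 4, 5 and 2 of 5. Neutrophil markers summed to 2.47 to 37.7 CPM with Tbet ko, 0 to 1.69 with IFNg ko, 0 to 3.47 with IL6Ra ko/IL21R ko and 0.909 to 6.70 with IL-17AF ko T cells, against 22.1 to 269 CPM with total T cells. With IL22 ko T cells no marker of these lists was called. The part of these shifts in the members' levels was not tested.

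**Figure D3:**
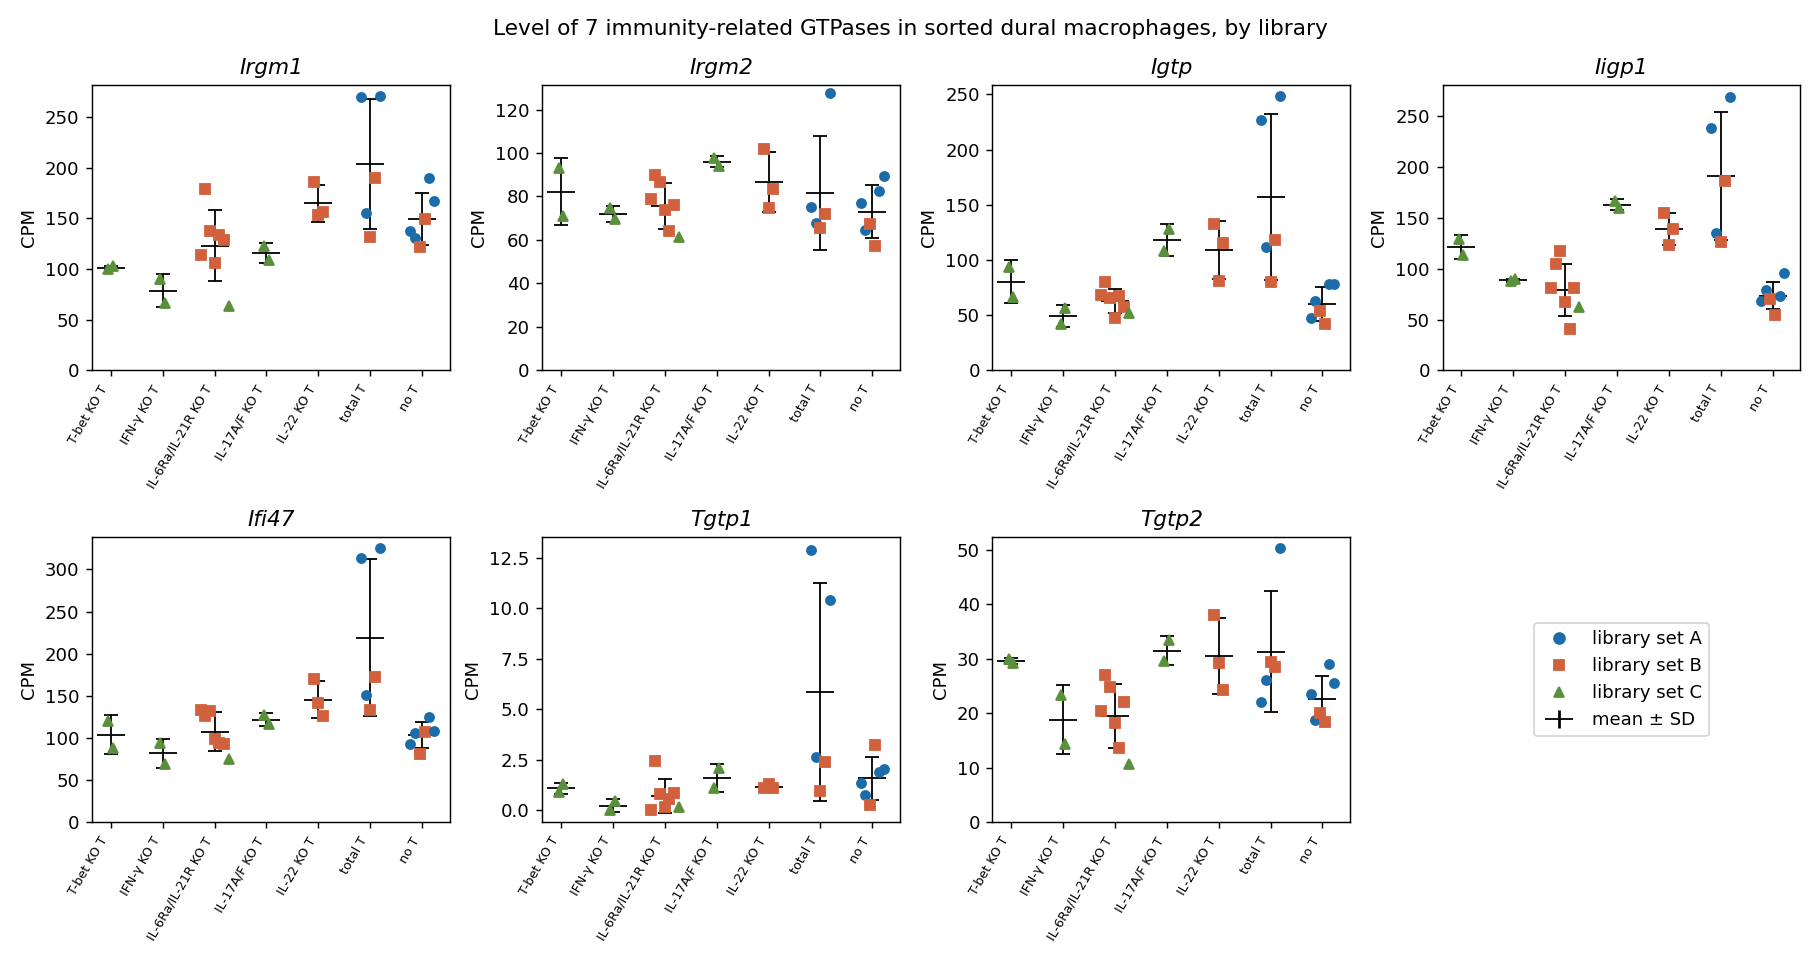
CPM (vertical axes, linear, each with its own scale) of the 7 members in each of 27 libraries, by donor T-cell group. Symbols mark the library set, and black lines give the mean and SD of a group. Igtp, Iigp1 and Ifi47 were high with total T cells and low without T cells, with the means of IL-17AF ko and IL22 ko T cells between, while group means of Irgm2 ran from 72.0 to 96.0 CPM.

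The third question was whether each knockout group differed from mice that had received no T cells. All 5 comparisons share the 6 libraries without T cells. With IL-17AF ko T cells 2 of 7 members were called higher, against 3.71% of all genes. Iigp1 had 167 and 159 CPM with IL-17AF ko T cells, against 54.8 to 95.9 CPM without T cells (1.13 ± 0.28, q = 0.0229). Igtp had 108 and 128 CPM, against 42.3 to 78.3 CPM (1.06 ± 0.30, q = 0.0393). Both groups were apart from the libraries without T cells by more than 10 CPM. Without either IL-17AF ko library both calls were lost (q from 0.155 to 0.322). The Igtp call was lost without any of 4 libraries of the group without T cells (F1, F2, F3 and F4, q from 0.0534 to 0.0719). Ifi47, the third gene called with total T cells, was at 127 and 116 CPM against 80.7 to 125 CPM without T cells (0.23 ± 0.28, q = 0.691). With the set as a term neither call held, although the differences were larger, at 1.76 ± 0.49 for Iigp1 (q = 0.212) and 1.83 ± 0.49 for Igtp (q = 0.171).

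With IL22 ko T cells Iigp1, Igtp and Ifi47 lay above the group without T cells, but none was called. Iigp1 had 154, 123 and 138 CPM, against 54.8 to 95.9 CPM (0.91 ± 0.25, q = 0.141), and Igtp 132, 80.5 and 115 CPM, against 42.3 to 78.3 CPM (0.87 ± 0.26, q = 0.189). Ifi47 had 170, 141 and 126 CPM, against 80.7 to 125 CPM (0.50 ± 0.24, q = 0.528). None of the 3 overlapped, with Ifi47 apart by less than 1 CPM. How many of all genes separate these groups was not counted, so this is not a result about the family. The test called 1 gene of 12597 in this comparison (0.00794%, 1187 at an unadjusted p under 0.05), and DESeq2 called 149, Iigp1 among them. When the library set was a term, Igtp (1.31, q = 0.0255) and Iigp1 (1.22, q = 0.0398) were called.

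With IFNg ko T cells 1 member, Irgm1, was called lower than without T cells, against 6.87% of all genes. It had 90.2 and 66.9 CPM, against 122 to 190 CPM (-0.91 ± 0.30, q = 0.0427). The call was lost when any 1 of 5 of the 6 libraries without T cells was left out, or either IFNg ko library, with q from 0.0501 to 0.215. Igtp (42.1 and 56.5 CPM), Iigp1 (87.4 and 89.4 CPM) and Ifi47 (93.9 and 69.2 CPM) overlapped the group without T cells, with differences of -0.20 ± 0.32, 0.25 ± 0.29 and -0.34 ± 0.29. No member was called with Tbet ko T cells, where 7.24% of genes were called in either direction (2917 unadjusted, DESeq2 1288), and Iigp1 came nearest (0.71 ± 0.29, q = 0.133). No member was called with IL6Ra ko/IL21R ko T cells, where 1.18% of genes were called (1361 unadjusted, DESeq2 256). There the differences of Igtp, Iigp1 and Ifi47 were 0.03 ± 0.21, 0.11 ± 0.20 and 0.06 ± 0.19. Inside set B they were larger, at 0.50 ± 0.23, 0.59 ± 0.27 and 0.45 ± 0.14, and with the set as a term 0.53, 0.47 and 0.48, and no member passed in either fit. Fibroblast markers were called higher than without T cells in 6 of 6 cases with Tbet ko, 6 with IFNg ko and 3 with IL-17AF ko T cells, and in none with the other 2 groups. These markers summed to 429 to 1461 CPM without T cells, and their part in these results was not tested. The groups with fibroblast calls lie in set C, so library set and donor cells cannot be told apart here either. Neutrophil markers were called lower than without T cells in 4 of 5 cases with IL6Ra ko/IL21R ko and 3 with IFNg ko T cells. None was called with Tbet ko, IL-17AF ko or IL22 ko T cells. The neutrophil sum varied widely without T cells, from 0.347 to 1502 CPM, and its part was not tested.

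**Figure D4:**
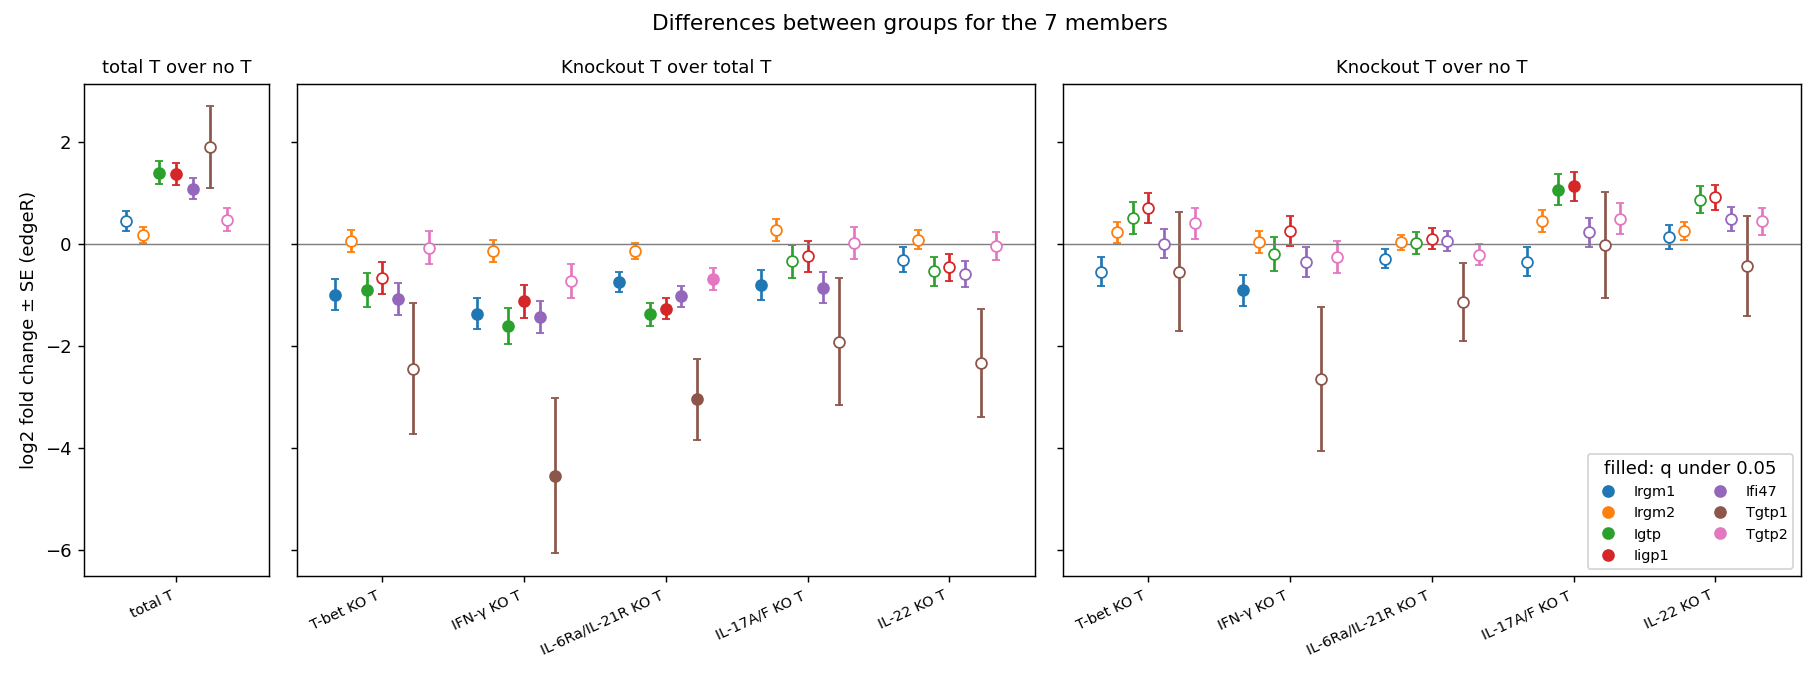
Log2 fold changes with standard errors (edgeR, all 27 libraries) for total T over no T cells (left), knockout T over total T cells (middle) and knockout T over no T cells (right). Filled points passed q under 0.05. Igtp, Iigp1 and Ifi47 were above 0 on the left, all 7 members were below 0 for IL6Ra ko/IL21R ko in the middle, 6 of them called, and Igtp and Iigp1 were called for IL-17AF ko on the right.

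The Tbet ko, IFNg ko and IL-17AF ko groups all lie in set C and could be set against each other without a change of library set. The values are from the fit of all 27 libraries. Igtp had 42.1 and 56.5 CPM with IFNg ko T cells, against 108 and 128 CPM with IL-17AF ko T cells (-1.26 ± 0.39, q = 0.569). Iigp1 had 87.4 and 89.4 CPM, against 167 and 159 CPM (-0.88 ± 0.36, q = 0.769). In all 7 members both IFNg ko libraries lay below both IL-17AF ko libraries, but no member was called in the fit of filtered genes. How many of all genes separate in this way was not counted, so the separation is not a result about the family. The test called 2 of 12597 genes here (0.0159%, 776 unadjusted), and DESeq2 called 11 genes and no member. Without the filter on low counts, Igtp (-1.26 ± 0.25, q = 0.000111) and Iigp1 (-0.89 ± 0.24, q = 0.027) were called. The outcome for these 2 genes thus depends on that filter. Their differences were nearly the same and their SEs smaller. The SE of Igtp was also smaller without the filter for total against no T cells (0.15, against 0.23 with it).

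With Tbet ko T cells the levels lay between. Against IL-17AF ko T cells, Igtp was at 93.9 and 66.4 CPM against 108 and 128 CPM (-0.56 ± 0.38, q = 1) and Iigp1 at 129 and 113 CPM against 167 and 159 CPM (-0.43 ± 0.36, q = 1). Against IFNg ko T cells, Igtp differed by 0.70 ± 0.39 and Iigp1 by 0.46 ± 0.36 (q = 1 for both). Neither comparison called any gene (0% of 12597 in each, with 180 and 441 at an unadjusted p under 0.05, and 0 in DESeq2). The IL22 ko and IL6Ra ko/IL21R ko groups lie in set B, but for 1 IL6Ra ko/IL21R ko library in set C. They were compared in the fit of all libraries. Igtp had 132, 80.5 and 115 CPM with IL22 ko T cells, against 47.5 to 79.8 CPM with IL6Ra ko/IL21R ko T cells, and Iigp1 154, 123 and 138 CPM against 40.5 to 117 CPM. Neither gene overlapped, and the differences were 0.84 ± 0.26 (q = 0.221) and 0.81 ± 0.24 (q = 0.202). The number of all genes without overlap was not counted here either. The test called 1 gene in all (0.00794%, 1087 unadjusted), DESeq2 called 78 and no member, and inside set B alone Igtp passed (0.74, q = 0.0477).

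Across all 7 groups, 5 of 7 members differed somewhere (edgeR, one test over the groups), against 38.5% of all genes. They were Igtp (q = 0.000141), Iigp1 (q = 0.000167), Ifi47 (q = 0.000828), Irgm1 (q = 0.00535) and Tgtp1 (q = 0.0222). Tgtp2 (q = 0.0672) and Irgm2 (q = 0.47) did not pass. For Igtp the group means ran, from high to low, over total (157 CPM), IL-17AF ko (118), IL22 ko (109), Tbet ko (80.1), IL6Ra ko/IL21R ko (62.6), no T cells (60.5) and IFNg ko (49.3), and each group overlapped its neighbour. For Iigp1 the order was total (191 CPM), IL-17AF ko (163), IL22 ko (139), Tbet ko (121), IFNg ko (88.4), IL6Ra ko/IL21R ko (79.1) and no T cells (73.5), with a gap between IL-17AF ko and IL22 ko, which was not tested, and between Tbet ko and IFNg ko (q = 1).

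Ifi47 and Irgm1 had an order of their own. Ifi47 ran over total (219 CPM), IL22 ko (146), IL-17AF ko (122), IL6Ra ko/IL21R ko (108), Tbet ko (104), no T cells (103) and IFNg ko (81.5), with overlap between all neighbours. Irgm1 ran over total (204 CPM), IL22 ko (165), no T cells (150), IL6Ra ko/IL21R ko (123), IL-17AF ko (116), Tbet ko (101) and IFNg ko (78.5), so that 4 knockout groups had a lower mean than mice without T cells. The 5 lowest Irgm1 libraries of the series were all in set C: the single IL6Ra ko/IL21R ko library of that set (63.3 CPM), both IFNg ko and both Tbet ko libraries. Once library set was added to the fit, the Irgm1 difference from total T cells was 0.32 for Tbet ko (q = 0.884) and 0.52 for IL-17AF ko (q = 0.893). That of IFNg ko from mice without T cells was 0.41 (q = 0.965), so all 3 were opposite in sign to the fit without that term.

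Irgm2 and Tgtp2 were led by the IL-17AF ko group. For Irgm2 the means ran over IL-17AF ko (96.0 CPM), IL22 ko (86.7), Tbet ko (82.2), total (81.6), IL6Ra ko/IL21R ko (75.9), no T cells (73.0) and IFNg ko (72.0), with overlap between all neighbours. For Tgtp2 they ran over IL-17AF ko (31.5 CPM), total (31.3), IL22 ko (30.5), Tbet ko (29.6), no T cells (22.5), IL6Ra ko/IL21R ko (19.5) and IFNg ko (18.8). Only Tbet ko and no T cells did not overlap among these neighbours, and that difference did not pass (q = 0.458). Summed over all 7 members, the level was 519 ± 67.4 CPM with Tbet ko, 389 ± 31.9 with IFNg ko, 468 ± 97.2 with IL6Ra ko/IL21R ko, 648 ± 7.57 with IL-17AF ko, 677 ± 94.0 with IL22 ko and 889 ± 324 with total T cells, and 484 ± 71.4 without T cells (SD over 2, 2, 7, 2, 3, 5 and 6 libraries).

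The guanylate-binding proteins, a second family of interferon-induced GTPases that act on the same vacuoles, also stood higher with total T cells. Of 7 tested, all 7 were called higher with total T cells than without, with a median log2 fold change of 1.96, against 1.09 for the 7 members. Gbp2 averaged 826 ± 609 CPM with total T cells and 96.7 ± 43.3 without (SD, n = 5 and n = 6, log2 fold change 3.09 ± 0.38, q = 1.99e-05). Gbp3 (1.49 ± 0.23) and Gbp7 (0.90 ± 0.17) were called too. Against total T cells, 7 of 7 were called lower with IL6Ra ko/IL21R ko T cells (median -1.84), 6 with IFNg ko (-2.07), 4 with Tbet ko (-1.16), 1 with IL-17AF ko (-0.47) and 0 with IL22 ko (-0.78). Against no T cells, 5 of 7 were higher with IL-17AF ko T cells (median 1.41), Gbp7 among them (1.21 ± 0.22, q = 0.00513).

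Of 9 tested genes that carry the interferon-gamma signal, 4 were called higher with total T cells than without (median 0.39). The receptor chain gene Ifngr2, 1 of these 4, averaged 234 CPM with total T cells against 178 CPM without (0.39 ± 0.13, q = 0.028). Ifngr1, the other receptor chain, had 389 against 370 CPM (0.07 ± 0.09, q = 0.641), and Irf1, an interferon-induced transcription factor, 560 against 618 CPM (-0.11 ± 0.23, q = 0.784). Socs3, a feedback inhibitor of cytokine signals, had 1220 against 1473 CPM (-0.27 ± 0.12, q = 0.13). Against total T cells, 5 of the 9 were called lower and 2 higher with IFNg ko T cells, with Ifngr2 (-0.67 ± 0.18, q = 0.00661) and Ifngr1 (-0.39 ± 0.13, q = 0.0241) among the lower. Socs3 went the other way, with a mean of 2344 CPM with IFNg ko T cells against 1220 CPM with total T cells. With IL6Ra ko/IL21R ko T cells 4 were lower and 1 higher, and Ifngr2 was again among the lower (-0.37 ± 0.13, q = 0.0285). With Tbet ko T cells 4 were lower and 2 higher, with IL-17AF ko 3 and 2, and with IL22 ko none was called.

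Of 14 genes of autophagy conjugation and effector loading, 3 were called higher and 1 lower with total T cells (median 0.09). Atg5, part of the conjugation complex, was higher (0.39 ± 0.13, q = 0.0387), while Atg7, the activating enzyme of that system, was at 0.26 ± 0.12 (q = 0.112). Gabarap and Map1lc3b, which are conjugated to membranes, were at 0.22 ± 0.10 (q = 0.11) and -0.19 ± 0.11 (q = 0.255), and the cargo receptor Sqstm1 at -0.0036 ± 0.15 (q = 0.99). With IFNg ko T cells 5 of the 14 were lower and 2 higher than with total T cells, and Atg5 was among the lower (-0.99 ± 0.20, q = 0.000551). With IL-17AF ko T cells 5 were lower and 0 higher, with Tbet ko 2 and 0, with IL6Ra ko/IL21R ko 2 and 2, and with IL22 ko none was called. Of 18 type I interferon genes, 1 was called higher and 2 lower (median 0.01), with Irf7, a regulator of that response, at 0.59 ± 0.24 (q = 0.0813), Rsad2, an antiviral enzyme, at 0.33 ± 0.26 (q = 0.393) and Oasl2 at -0.03 ± 0.17 (q = 0.927). Against total T cells, 5 of the 18 were lower and 1 higher with each of Tbet ko (median -0.39), IFNg ko (-0.33) and IL6Ra ko/IL21R ko T cells (-0.25). With IL-17AF ko T cells 2 were lower and 1 higher, and with IL22 ko none was called. Of 8 other family members tested, 1 was higher and 1 lower (median 0.18). Gm12250, the effector also called Irgb10, averaged 33.8 CPM with total T cells against 16.3 CPM without (1.07 ± 0.32, q = 0.0181) and was lower with IFNg ko T cells than with total T cells (-2.25 ± 0.51, q = 0.00171), as it was with IL6Ra ko/IL21R ko T cells (-0.85 ± 0.31, q = 0.0396). Gm4951 (0.46 ± 0.24, q = 0.19) and Irgq (-0.55 ± 0.23, q = 0.097) did not pass, and Irgc1 had too few counts to be tested.

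The genes whose pattern over the 27 libraries was most like the mean of the 7 members were named by the root mean square difference of centred log2(CPM + 1) values. Ifi47 was closest of all genes (0.18), as a part of that mean. The nearest genes that are not members included Psme1 (0.22), a proteasome activator subunit, Tapbpl (0.23) and Tapbp (0.25), which edit peptides on MHC class I, the MHC class I genes H2-T23 (0.24) and H2-Q4 (0.25), the hexokinase Hk3 (0.25) and Trafd1 (0.26). The median over all genes tested was 0.62. Igtp (0.27), Irgm1 (0.28), Tgtp2 (0.31), Iigp1 (0.32), Irgm2 (0.36) and Tgtp1 (0.54) were all farther from the mean than these 7. The libraries share their depth, set and cell mix, so the likeness is a description of these 27 libraries.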

How the data were processed

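Per the labels' protocols, macrophages were sorted from digested dura mater of perfused mice, and 75-base single-end reads came from a kit that does not keep strand, so genes overlapping on opposite strands share reads. The authors deposited whole-number read counts per Ensembl gene for 27 libraries. The tools in the submitters' processing notes are STAR (2.4.0j), featureCounts and DESeq2 (1.20.0), with GRCm38 as the build. The sources used here do not say how reads matching several genes were counted. The table's name calls the values normalized, but they are whole numbers with totals that differ between libraries, so they were treated as raw counts. Columns show group and sex but not the replicate numbers of the sample titles. Library totals ran from 6902602 to 19966749. Identifiers without a symbol took 0.106% to 0.143% of a library's counts.

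The fit kept 12597 genes, those whose normalized counts averaged 10 or more. One edgeR 4.0.16 model (R 4.3.3, TMM, quasi-likelihood F test) was fitted to all 27 libraries with group and sex as terms, and 15 contrasts were adjusted by the Benjamini-Hochberg method over all genes. The SE is the log2 fold change divided by the square root of F. Only the edgeR model was tested on simulated data, for total against no T cells and without a simulated difference between library sets. Library pairs of a group differed by more than sampling noise (chi-square per degree of freedom from 8.97 to 138 over 52 pairs), and each library was counted once. Library sets come from Ward clustering of ribosomal protein genes. Alternatives were DESeq2 1.42.0, no filter, no sex term, females only, the library set as a term, single sets, only the groups compared, Tgtp1 and Tgtp2 summed, and each library left out. Named genes are all 7 members, up to 3 genes of each list by mean count plus fixed pathway genes, and the 8 genes most like the members' mean. Some genes this rule names are not reported here. Gbp5, Gbp6 and Gbp10 were not analysed here. Members, lists and library sets were chosen with earlier results of these data known. Promoters are from the RefSeq table of GRCm38.p6. Windows of 6 members are used here, and alignments were made with Biopython 1.88. Iigp1 was left out of the promoter listing, the motif positions and the alignments, so nothing is said of its motifs.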

Additional observations from a re-analysis of the deposited data

Results flagged for a closer look

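In groups of 4 to 10 libraries, the highest and lowest values of each member were examined. The gap of each to its nearest neighbour was divided by the range of the group and set against a critical value. There were 21 tests, of which chance alone flags about 1 in 20. In the total T-cell group, library M1, the only male of the group, stood apart for Irgm2 at 127.7 CPM and for Tgtp2 at 50.43 CPM. Without it the Irgm2 difference from mice without T cells was -0.08 (q = 0.759), and the Tgtp2 difference of IL6Ra ko/IL21R ko from total T cells was -0.35 (q = 0.28). In the IL6Ra ko/IL21R ko group, library F2 stood apart for Tgtp1 at 2.452 CPM.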

How the results depend on the processing

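No paired analysis was possible because the columns carry no replicate numbers of the sample titles. The direction of Igtp, Iigp1 and Ifi47 with total T cells against none held under every setting run, and 3 members were called in it, except for 5 in set A alone, 0 in set B alone, and 4 without the filter, with the library set as a term, in a fit of only these groups and without total T-cell library F3. With library set in the fit, 0 members were called against total T cells for Tbet ko, IFNg ko and IL-17AF ko and 2 for IL6Ra ko/IL21R ko, and against no T cells 0 for IFNg ko, 0 for IL-17AF ko and 2 for IL22 ko. In that fit Irgm1 reversed to 0.32 (Tbet ko against total), 0.52 (IL-17AF ko against total) and 0.41 (IFNg ko against none), and Ifi47 to 0.0199 (IL-17AF ko against total). Inside set B, 0 members were called for IL6Ra ko/IL21R ko against total and 1 for IL22 ko against IL6Ra ko/IL21R ko. Females alone gave 2 for IL6Ra ko/IL21R ko and 1 for IL-17AF ko against total, and 1 for Tbet ko against none. Fits of only the groups compared gave 0 for Tbet ko, 2 for IFNg ko and 0 for IL-17AF ko against total, and 1 for Tbet ko and 1 for IL22 ko against none. Without the filter there was 1 for IL22 ko against total, 1 for Tbet ko and 2 for IL22 ko against none, 2 for IFNg ko against IL-17AF ko and 2 for IL22 ko against IL6Ra ko/IL21R ko. No sex term gave 1 for IL-17AF ko against none, and DESeq2 1 for IL22 ko against none. Leaving out 1 library gave 0 to 3 (Tbet ko), 3 to 5 (IFNg ko), 4 to 6 (IL6Ra ko/IL21R ko) and 0 to 2 (IL-17AF ko) against total, 0 to 1 (IFNg ko) and 0 to 2 (IL-17AF ko) against none, and 3 to 4 for total against none. Except for DESeq2, the share of all genes called was not counted under these settings. A change in the number of members called is therefore not a result about the family. The causes were not tested. Where a single library is left in a group it is assumed to vary like the others. Tgtp1, at 2 to 32 counts in libraries without T cells, is limited by depth.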
